A study of Mus musculus with 4 samples.

Results

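Antibody constant genes were followed in lung sections of vaped and non-vaped mice as the 10 genes Ighm, Ighd, Ighg2b, Ighg2c, Igha, Igkc, Iglc1, Iglc2, Iglc3 and Jchain, out of 32285 genes in each count table. They were chosen by name, and selected on earlier results of these sections that included the contrast of vaped with non-vaped mice. The values of that contrast are therefore given as a description, and nothing is read from a test of the members in it, whereas the comparison of regions within sections, which did not enter the choice, was tested.

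An antibody joins heavy chains, which set its class, to light chains of the kappa or the lambda kind. Naive B cells carry IgM and IgD at their surface. Plasma cells, the secreting form, hold very large amounts of constant region mRNA, and class switching replaces the IgM constant region with that of IgG, IgE or IgA in the same locus. IgA is the main class secreted at mucosal surfaces such as the airway lining, where it leaves as a dimer held by the J chain and is carried across the epithelium by the receptor Pigr. IgM is secreted as a polymer that also carries the J chain.

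The lung cryosections came from 4 C57BL/6J mice, with 1 male and 1 female in each group, and each mouse gave 1 section. The 2 vaped (V) mice had breathed e-vapor of Peach Ice 70VG/30PG flavoured vape juice from JUUL pens in whole-body chambers (4 h daily, 5 days weekly, 9 weeks), from an age of about 6 to 8 weeks. The 2 non-vaped (NV) mice, with the same age range at the start, were the controls. The labels name the tissue as upper pulmonary branches in all 4 sections. On the Visium slide each spot binds mRNA from several overlying cells at once, and each captured molecule receives a unique molecular identifier (UMI). Levels are given as UMIs in each 1000000 UMIs of a section (CPM), and since molecules were counted at their 3′ end they were not scaled to gene length.

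In the GRCm38 annotation (GENCODE vM21) all 10 genes were found. The heavy chain genes lie on the minus strand of chromosome 12, with Ighm at chr12:113418558-113422730, Ighd at chr12:113406604-113416324, Ighg2b at chr12:113302965-113307933, Ighg2c at chr12:113285325-113288932 and Igha at chr12:113254830-113260236, the order in which a B cell can switch. Igkc lies at chr6:70726435-70726966 on the plus strand. Iglc1, Iglc2 and Iglc3 lie on the minus strand at chr16:19061618-19062071, chr16:19198396-19200351 and chr16:19065230-19065681, and Jchain on the minus strand at chr5:88519809-88527891.

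The coding ends of the secreted forms of Ighm and Igha (GENCODE transcripts) are shown because both encode the tail of 18 codons that the J chain joins. Capitals mark the second-last codon, which encodes the cysteine that bonds with the J chain.
Ighm: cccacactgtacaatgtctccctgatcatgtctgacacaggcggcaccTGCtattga
Igha: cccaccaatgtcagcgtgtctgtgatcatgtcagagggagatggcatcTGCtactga

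The last 120 coding bases of the lambda genes are shown because 1 section stood apart in Iglc2, and the count of Iglc2 depends on telling it from Iglc3. Capitals mark bases that differ from Iglc2 or, in Iglc2, from Iglc3.
Iglc1: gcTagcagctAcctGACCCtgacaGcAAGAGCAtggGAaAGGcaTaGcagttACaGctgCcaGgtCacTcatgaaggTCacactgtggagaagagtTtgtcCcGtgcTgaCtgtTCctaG
Iglc2: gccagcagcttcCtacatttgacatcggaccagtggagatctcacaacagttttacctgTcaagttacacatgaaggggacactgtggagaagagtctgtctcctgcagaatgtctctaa
Iglc3: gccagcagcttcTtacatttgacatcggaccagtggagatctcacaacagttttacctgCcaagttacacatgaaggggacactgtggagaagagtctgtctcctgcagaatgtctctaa
Iglc2 and Iglc3 differed at 2 of these 120 bases, and Iglc1 differed from Iglc2 at 39. Over the whole coding sequence the identity was 96.2% for Iglc2 with Iglc3 and 73.7% for Iglc1 with Iglc2. Ighg2b and Ighg2c were 86.0% identical. In the 3′ untranslated part the identity was 90.0% for Iglc2 with Iglc3 and 91.3% for Ighg2b with Ighg2c. The split of UMIs within each of these pairs is uncertain where reads fell on shared bases.

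Sections held 473 to 2053 spots and 6957392 to 34308556 UMIs, with median depths of 6259 to 11355 UMIs per spot. Of 2583 distinct spot barcodes, 1411 occurred in more than 1 section, and these barcodes are array positions and not cells. The V male section stood apart in its tissue. Markers of cardiac muscle summed to 18.2 CPM there against 3673 to 7015 CPM in the other sections, and Club cell markers, which line the airways, to 287 CPM against 2244 to 12764 CPM. Of its 1565 spots, 1564 were parenchyma, the gas-exchange tissue, by the level of 6 alveolar and endothelial markers. Tissue and group are thus not independent, and values in parenchyma spots alone are given beside the whole sections. In tissue sections, fewer cells of a type and less RNA per cell cannot be told apart.

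In V sections the IgA heavy chain gene was higher and the IgM heavy chain gene lower than in NV sections, in both sexes. Of the 10 genes, Igha was higher in both V sections than in either NV section, 6 genes (Ighm, Ighd, Igkc, Iglc2, Iglc3 and Jchain) were lower in both, and Ighg2b, Ighg2c and Iglc1 overlapped. Over all 14570 genes tested, 12.6% were higher in both V sections and 14.4% lower in both. Together the 10 genes made up 0.294% and 0.279% of all UMIs in the NV male and NV female and 0.0957% and 0.111% in the V male and V female.

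Ighm, the constant region of IgM, reached 815 and 1082 CPM in the NV sections (male and female), and 113 and 215 CPM in the V sections (male and female). The group means were 948 ± 189 CPM in NV and 164 ± 71.5 CPM in V (SD, n = 2). Both V sections lay far below both NV sections, 7.18-fold lower in males and 5.04-fold lower in females. In parenchyma spots alone the levels were 531 and 581 CPM in the NV sections and 113 and 231 CPM in the V sections, so the groups still did not overlap, at a smaller distance.

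Igha, the constant region of IgA, reached 72.4 and 41.7 CPM in the NV sections (male and female), and 290 and 220 CPM in the V sections (male and female). The group means were 57.1 ± 21.8 CPM in NV and 255 ± 49.8 CPM in V (SD, n = 2). The V level was 4.0-fold that of NV in males and 5.27-fold in females. In parenchyma spots alone it was 89.1 and 48.3 CPM in NV and 290 and 182 CPM in V.

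Ighd, the constant region of IgD that marks naive B cells, reached 84.5 and 65.8 CPM in NV and 46.8 and 43.7 CPM in V, again with the male first. It differed less than Ighm, with a ratio of means of 0.602 against 0.173. The ratio of Ighm to Ighd UMIs was 9.64 and 16.4 in NV and 2.42 and 4.91 in V.

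IgG constant genes were at low levels. Ighg2b was counted 25, 7, 14 and 94 times in the NV male, NV female, V male and V female, or 1.01 to 2.74 CPM. Ighg2c was counted 43, 31, 0 and 166 times. The 0 UMIs in the V male allow a level of up to 0.253 CPM, whereas the other sections held 4.46 to 4.84 CPM. Ighg1 was counted 4, 9, 6 and 111 times, Ighg3 0, 10, 6 and 22 times, and Ighe once, in the V female.

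**Figure D1:**
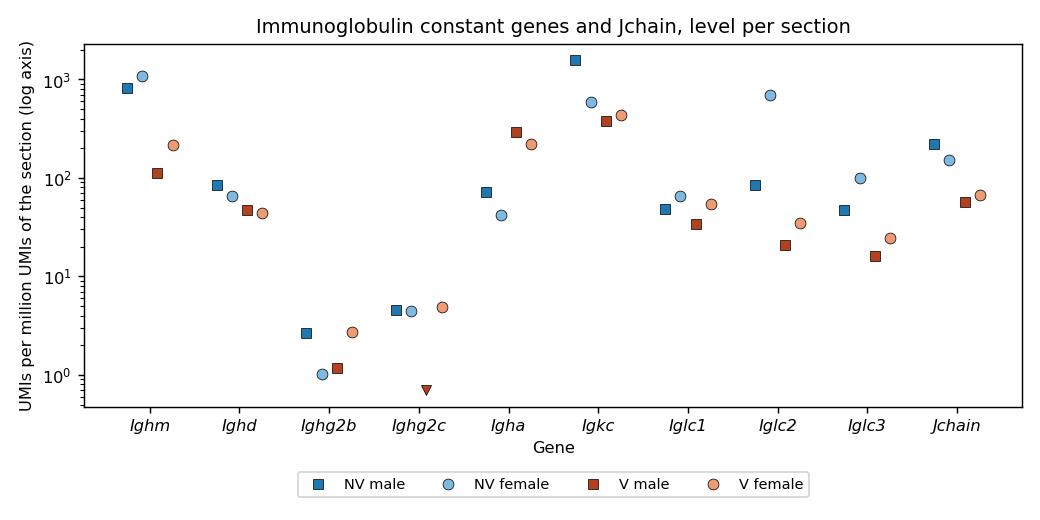
Level of each gene in each of the 4 sections, in CPM on a log axis; squares are males, circles females, blue NV and red V, and the triangle marks Ighg2c in the V male at 0 UMIs. Ighm lies between 113 and 215 CPM in V sections and between 815 and 1082 CPM in NV sections, and Igha lies the other way round.

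The edgeR quasi-likelihood test over all genes called 0 genes between V and NV, or 0% of 14570. A total of 248 genes had an unadjusted p under 0.05. The fitted log2 fold change was 2.12 ± 0.34 for Igha, -2.52 ± 0.50 for Ighm, -1.58 ± 0.30 for Jchain and -0.76 ± 0.19 for Ighd (SE, n = 2 per group). DESeq2's Wald test called 8 genes, of which 3 were Igha, Ighm and Jchain. Since the members were chosen on this contrast, nothing is read from whether they were called. For 2 mice against 2, the smallest two-sided p of an exact permutation test is 0.333. Among parenchyma spots alone the fitted log2 fold change was 1.77 for Igha, -1.67 for Ighm and -0.70 for Jchain.

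The class make-up of heavy chain UMIs differed between the groups. In NV sections IgM made up 83.2% of heavy chain UMIs (male, exact 95% interval 82.4 to 84.0%, counting error only) and 90.3% (female, 89.7 to 91.0%). In V sections it made up 25.1% (male, 23.9 to 26.3%) and 43.9% (female, 43.1 to 44.6%). IgA made up 7.40% (6.87 to 7.95%) and 3.48% (3.10 to 3.90%) in the NV male and female, against 64.1% (62.8 to 65.4%) and 44.9% (44.1 to 45.6%) in the V male and female. The V male thus had a clear majority of IgA, and in the V female both classes were near level, with 1.02 Igha UMIs for each Ighm UMI. IgD kept 8.63%, 5.50%, 10.3% and 8.93%, and IgG 0.783%, 0.684%, 0.484% and 2.34%, in the same order.

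The mean IgA share was 49.0 percentage points higher in V than in NV, with a pooled SD between sections of 9.81 points. In parenchyma spots alone the difference was 41.3 points. Without the richest 1% of spots of each section by heavy chain UMIs, left out after the data had been seen, it was 39.3 points. The IgM share differed by -52.3 points, and by -40.4 points in parenchyma spots alone.

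**Figure D2:**
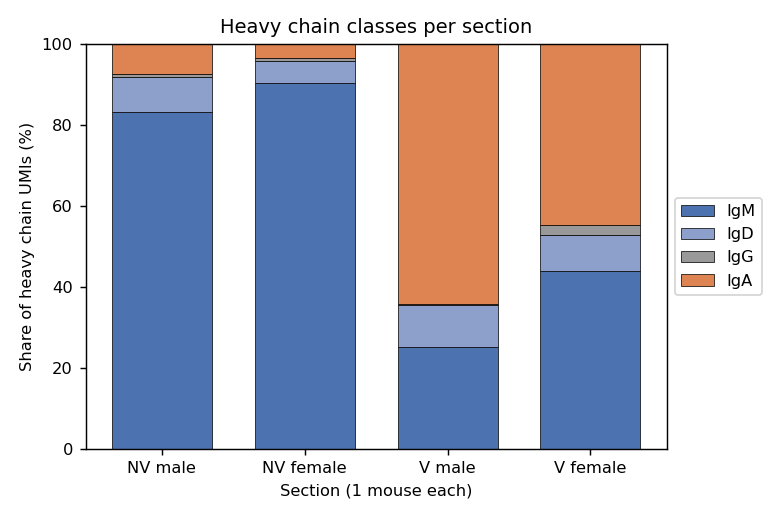
Share of heavy chain UMIs held by IgM, IgD, IgG and IgA in each section, in percent of the section's heavy chain UMIs, as stacked bars; each bar is 1 mouse. IgM fills 83.2% and 90.3% of the NV bars and 25.1% and 43.9% of the V bars, and IgA 64.1% and 44.9% of the V bars.

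The light chain genes Igkc, Iglc2 and Iglc3 were lower in both V sections, but each was high in 1 NV section and the balance of kappa and lambda did not follow the groups. Igkc, the constant region of kappa chains, stood at 1559, 588, 378 and 440 CPM in the NV male, NV female, V male and V female. The NV male alone was far above the rest, and the NV female was 1.34-fold above the V female. Iglc2, a lambda constant region, stood at 84.6, 690, 20.6 and 35.0 CPM, high in the NV female alone. Iglc3 stood at 47.2, 101, 16.1 and 24.4 CPM, in the same order of sections as Iglc2. Iglc1 stood at 48.0, 65.1, 33.8 and 53.9 CPM, with the V female between both NV sections. The gaps were smaller in parenchyma spots alone, with 887, 532, 378 and 465 CPM of Igkc, 96.9, 210, 20.6 and 41.3 CPM of Iglc2, and 49.2, 52.5, 16.1 and 31.7 CPM of Iglc3 (NV male, NV female, V male, V female). The fitted log2 fold change there was -0.75 for Igkc and -2.27 for Iglc2, against -1.40 and -3.80 in whole sections.

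The number of kappa UMIs for each lambda UMI was 8.67 (male, exact 95% interval 8.24 to 9.12) and 0.687 (female, 0.660 to 0.715) in NV, and 5.36 (male, 4.98 to 5.78) and 3.88 (female, 3.75 to 4.02) in V. The NV sections lay on either side of both V sections, so the spread between the NV mice exceeded any difference between the groups. Lambda UMIs of the NV female were 80.6% Iglc2, whereas Iglc1 led in the V sections with 47.9% and 47.5%. In parenchyma spots alone the NV female ratio was 1.59, still below the other sections, which had 3.46 to 5.36.

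Jchain, the chain that links IgM and IgA into polymers, reached 219 and 151 CPM in NV and only 57.3 and 67.0 CPM in V (male first). Both V sections were lower, 3.82-fold in males and 2.25-fold in females. The groups overlapped in parenchyma spots alone, at 99.9 and 55.7 CPM in NV and 57.3 and 39.4 CPM in V, so that the NV female was below the V male. For each 100 UMIs of Ighm and Igha together there were 24.7, 13.4, 14.2 and 15.4 Jchain UMIs, so in whole sections the ratio was high in the NV male only. In parenchyma spots alone it was 16.1, 8.85, 14.2 and 9.54, and the NV male was close to the V male.

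A few spots held much of the antibody mRNA, and the richest of them were IgM spots in NV and IgA spots in V. Of the richest 1% of spots by heavy chain UMIs, 6 of 8 (NV male), 5 of 5 (NV female), 0 of 16 (V male) and 18 of 21 (V female) lay on the airway side of the tissue, that is, had less than 50% of the series' level of parenchyma markers. The V male had only 1 such spot in all, so in counts of rich spots the tissue covered and the group cannot be told apart. In the NV male the richest spot by heavy chain UMIs held 1020 Ighm and 0 Igha UMIs, with 2080 Igkc and 292 Jchain UMIs, and antibody genes made up 11.2% of all its UMIs. The next 4 spots held 670, 560, 438 and 182 Ighm UMIs with at most 2 Igha UMIs, and kappa made up 93.5 to 98.7% of the light chain UMIs of the first 5 spots. The sixth spot was of another kind, with 105 Igha UMIs, 7 Ighm UMIs and 106 Iglc2 UMIs against 14 Igkc UMIs. These spots were therefore each made up almost wholly of 1 class and 1 kind of light chain.

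In the NV female the richest 5 spots were IgM spots with lambda chains. They held 1320, 595, 516, 440 and 229 Ighm UMIs and 1019, 498, 475, 466 and 292 Iglc2 UMIs, and kappa made up 1.32 to 19.7% of their light chain UMIs. The richest 5 spots alone, which are the richest 1% of that section, held 57.3% of its Iglc2 UMIs. Iglv2, a lambda variable gene, was counted in all 5 of these spots, with 1 to 6 UMIs each. The sixth spot held 147 Ighm, 15 Ighd and 41 Igha UMIs with 216 UMIs of the B cell marker list, against 4 to 24 UMIs of that list in the first 5 spots.

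In the V male the richest 6 spots were all IgA spots with kappa chains. They held 510, 215, 117, 88, 63 and 38 Igha UMIs, at most 8 Ighm UMIs, and kappa made up 95.4 to 100% of their light chain UMIs. Jchain UMIs in them numbered 93, 85, 16, 27, 15 and 21. In the V female the richest 3 spots held 784, 335 and 301 Igha UMIs. The fourth spot was an IgM spot with 199 Ighm, 91 Iglc2 and 70 Igkc UMIs, the fifth held 128 Ighm UMIs and 80 UMIs of the B cell list, and the sixth held 129 Igha UMIs.

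**Figure D3:**
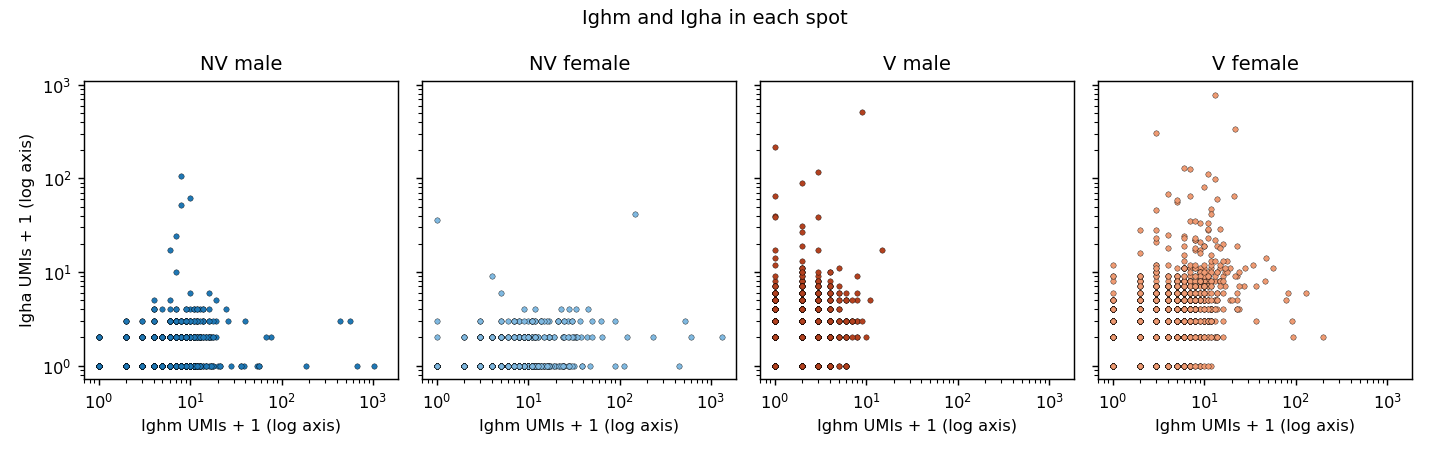
Igha UMIs against Ighm UMIs of every spot, both with 1 added and on log axes, with 1 panel per section; spots with the same counts overlie each other. NV sections reach 1020 and 1320 Ighm UMIs along the lower edge, whereas V sections reach 510 and 784 Igha UMIs along the left edge, and few spots are rich in both.

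Counts of rich spots differed in the same direction. Spots with at least 50 Ighm UMIs numbered 10 of 842 in the NV male, 12 of 473 in the NV female, 0 of 1565 in the V male and 7 of 2053 in the V female. Spots with at least 50 Igha UMIs numbered 3, 0, 5 and 14. Among spots with at least 10 heavy chain UMIs, Igha led in 7 of 227 and 2 of 182 spots of the NV male and female, and in 44 of 58 and 164 of 501 spots of the V male and female. Ighm led in 220, 180, 14 and 331 of these spots. Among parenchyma spots alone, a restriction chosen after the data had been seen, spots with at least 50 Ighm UMIs numbered 0, 0, 0 and 1, and those with at least 50 Igha UMIs 3, 0, 5 and 2. The split in Ighm-rich spots between NV and V was thus not present in parenchyma. Igha led in 7 of 194, 2 of 105, 44 of 58 and 77 of 276 parenchyma spots with at least 10 heavy chain UMIs.

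The share of a gene's UMIs that the richest 1% of spots held was 40.1% and 41.2% for Ighm in the NV male and female, against 9.05% and 15.3% in the V male and female. The order turned in parenchyma spots alone, with 4.30% and 4.34% in NV and 9.05% and 7.54% in V. For Igha it was 40.4%, 31.7%, 36.4% and 34.4%, with no split between the groups, and in parenchyma 42.0%, 26.4%, 36.4% and 18.7%. Ighd, which naive B cells express at a modest level, was spread out, with 7.82 to 10.7%. Sftpc, the surfactant gene of alveolar type II cells, had 4.59 to 5.47%. Jchain was more concentrated than either Ighm or Igha in each whole section, at 55.1%, 51.5%, 47.4% and 38.7%, but in parenchyma it was at 12.9%, 7.62%, 47.4% and 22.1%.

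**Figure D4:**
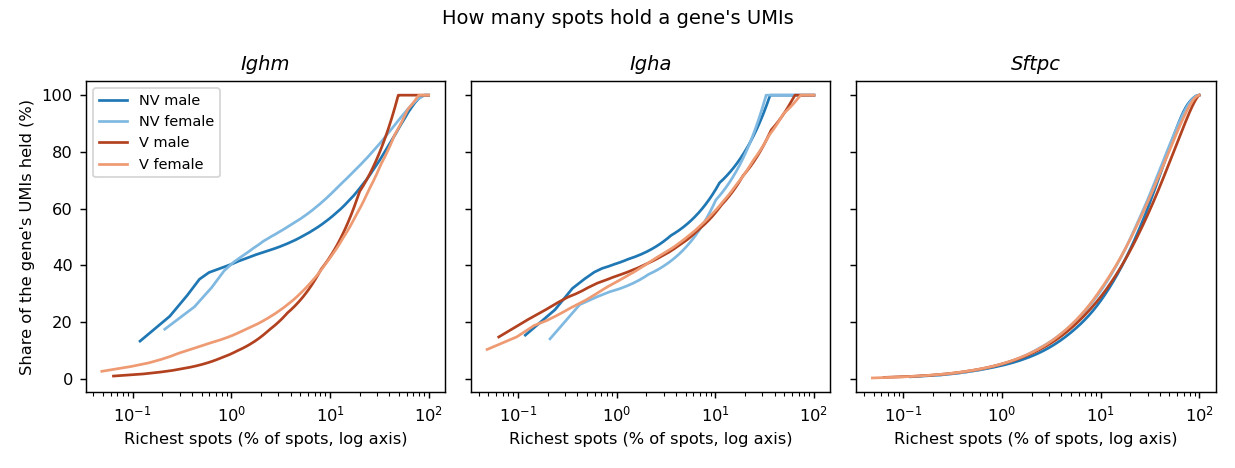
Share of a gene's UMIs, in percent, held by the richest spots of a section, in percent of its spots on a log axis, for Ighm, Igha and Sftpc, with 1 line per section. At 1% of spots the Ighm lines of the NV sections stand at 40.1% and 41.2% and those of the V sections at 9.05% and 15.3%, while the Igha lines lie between 31.7% and 40.4%. All spots are plotted, and in parenchyma spots alone the Ighm shares were 4.30% and 4.34% in NV and 9.05% and 7.54% in V.

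The lower Ighm and higher Igha levels of V sections were also present outside the richest spots. Without the richest 1% of spots by heavy chain UMIs, Ighm measured 511 and 655 CPM in NV and 111 and 194 CPM in V (male first). Igha stood at 55.5 and 42.2 CPM in NV and at 189 and 154 CPM in V.

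After each spot was thinned to 3000 UMIs, Ighm was counted in 75.6% of spots of the NV male, 80.5% of the NV female, 25.8% of the V male and 46.0% of the V female. The Igha shares were 14.0%, 11.9%, 41.2% and 37.5%. Shallower spots, 52 to 224 per section, were left out. Before thinning, the Ighm shares were 89.5%, 92.2%, 49.2% and 79.4% and the Igha shares 36.0%, 32.8%, 63.9% and 73.1%. Spots rich in cardiac muscle were taken as tissue that should hold few plasma cells. In the NV male, however, they included the spots ranked 1, 4 and 5 by heavy chain UMIs, with 1020, 438 and 182 Ighm UMIs. Over the cardiac spots the thinned share of Ighm was 58.3% of 36 spots in the NV male. It was 78.6% of 28 spots in the NV female, and 30.0% of 20 spots in the V female. That of Igha was 2.78%, 3.57% and 45.0% of the same spots. The median depth before thinning was 27043, 43022 and 39388 UMIs in those cardiac spots and 9848, 9518 and 9046 UMIs in parenchyma spots of the same sections. For Ighm in the NV female the share over all spots was close to the cardiac share. For Igha in the V female it was below the cardiac share, but within its exact interval of 23.1 to 68.5%. The Ighm shares of the NV male and V female were above those in cardiac muscle, as were the Igha shares of both NV sections. Of these shares over all spots, the Ighm share of the NV male alone lay outside the cardiac interval, which was 40.8 to 74.5%. The other intervals were 11.9 to 54.3% (V female Ighm), 0.0703 to 14.5% (NV male Igha) and 0.0904 to 18.3% (NV female Igha). In parenchyma spots alone the thinned Ighm shares were 77.4%, 80.9%, 25.8% and 48.6% (NV male, NV female, V male, V female). The Igha shares there were 16.0%, 13.6%, 41.2% and 37.2%, and that of the NV male was above its cardiac interval too. The part of background in these shares was not tested.

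Regions within sections were compared in the 3 sections that had at least 50 spots of both kinds, namely the NV male, the NV female and the V female. Airway side spots, those with less than 50% of the series' level of parenchyma markers, numbered 158 of 842, 125 of 473 and 433 of 2053 and held airway, vessel, cardiac muscle and brown fat tissue. The test was edgeR's quasi-likelihood test of summed counts with the section as a block. It called 22.7% of 13526 genes higher and 18.8% lower on the airway side. Of the 10 members, Jchain, Ighm, Igkc and Ighg2c were called higher and Ighd lower.

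Jchain was higher on the airway side throughout. It measured 615 CPM there and 99.9 CPM in parenchyma for the NV male, 263 and 55.7 CPM for the NV female, and 99.9 and 39.4 CPM for the V female. The log2 difference was 2.50 ± 0.23 (SE, 3 sections), with an edgeR adjusted p of 2.08e-05. Ighd was lower on the airway side throughout, measuring 33.6 and 99.8, 37.6 and 89.7, and 21.7 and 62.1 CPM in the same order. Its log2 difference was -1.02 ± 0.12, with an edgeR adjusted p of 9.28e-05. The IgD gene and the J chain gene thus lay on opposite sides of the tissue split. Ighg2c was higher on the airway side by 1.88 ± 0.36 (log2, edgeR adjusted p = 0.0021), measuring 12.9 and 2.08, 6.90 and 2.39, and 6.33 and 3.59 CPM in that order.

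Ighm and Igha differed between sections in where they were high. On the airway side Ighm measured 1755 CPM, and in parenchyma 531 CPM, for the NV male, with 1673 and 581 CPM for the NV female but 195 and 231 CPM for the V female. The pooled log2 difference of 1.45 ± 0.33 (edgeR adjusted p = 0.00601) thus did not hold in the V female. It missed the threshold without the NV female (log2 difference 1.19, edgeR adjusted p = 0.0688), and without the richest 1% of spots by Igkc (0.61, edgeR adjusted p = 0.123), at a region threshold of 25% (0.91, edgeR adjusted p = 0.168) and with no section block (1.87, edgeR adjusted p = 0.086), and its adjusted p ranged from 2.14e-20 to 0.168 over the alternatives. Igha measured 17.0 and 89.1 CPM, 33.9 and 48.3 CPM, and 264 and 182 CPM on these sides of the same sections, with a pooled log2 difference of -0.08 ± 0.38 (edgeR adjusted p = 0.883). Without the V female it was -0.89 and past the threshold (edgeR adjusted p = 0.000564), and without the NV male it was 0.53 and past the threshold in the other direction (edgeR adjusted p = 0.0327, with a range of 0.000564 to 0.916 over the alternatives). Whether the region effect differed between V and NV was not tested, since only 1 V section had both regions.

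Light chains gave mixed results by region. Igkc was called higher on the airway side, by 1.15 ± 0.37 (log2, edgeR adjusted p = 0.031), with airway side and parenchyma levels of 3791 and 887 CPM (NV male), 654 and 532 CPM (NV female), and 411 and 465 CPM (V female). The call was lost without the NV female (log2 difference 1.40, edgeR adjusted p = 0.0647), without the richest 1% of spots by Igkc (0.19, edgeR adjusted p = 0.272), at a region threshold of 25% (0.06, edgeR adjusted p = 0.851), with no section block (1.84, edgeR adjusted p = 0.119) and by DESeq2's Wald test (1.17, adjusted p = 0.194), within a range of 2.48e-11 to 0.851 over the alternatives. Iglc2 was higher on the airway side of the NV female (1258 and 210 CPM), and lower there in the NV male (43.7 and 96.9 CPM) and the V female (27.5 and 41.3 CPM). Iglc1, Iglc2, Iglc3 and Ighg2b did not pass the test, with edgeR adjusted p of 0.169 to 0.433.

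**Figure D5:**
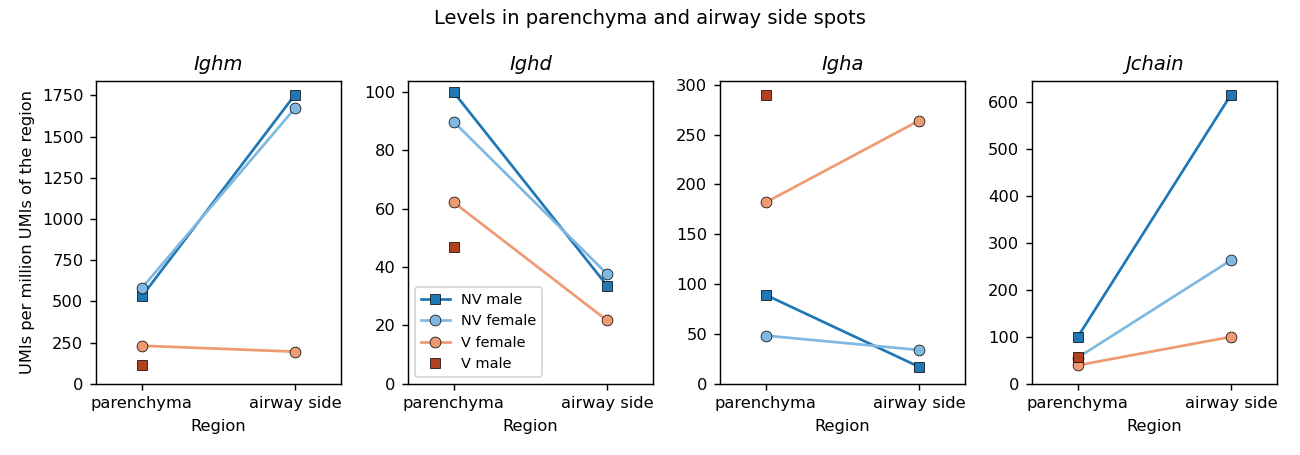
Level of Ighm, Ighd, Igha and Jchain in parenchyma and airway side spots, in CPM of the region, with a line joining the regions of 1 section; the V male has parenchyma spots only. Ighm goes from 531 to 1755 CPM in the NV male, from 581 to 1673 CPM in the NV female and from 231 to 195 CPM in the V female, and the Ighd line slopes down in each section.

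Markers of B cells were lower in V sections, as were Ighm and Ighd. The list of 16 B cell genes summed to 451 and 521 CPM in NV, and to 232 and 331 CPM in V (male first). Of its genes, 14 were lower in both V sections than in either NV section, 2 overlapped and none was higher, where 14.4% of all genes tested were lower. edgeR called none of them between V and NV, and their median log2 fold change was -0.79 against 0.03 over all genes tested. Cd79a, part of the B cell receptor, stood at 69.5, 82.5, 37.5 and 50.4 CPM in the NV male, NV female, V male and V female. Its partner Cd79b stood at 88.9, 87.2, 40.8 and 60.7 CPM. Ms4a1, which encodes CD20, stood at 48.7, 50.4, 21.9 and 28.6 CPM. In parenchyma spots alone the B cell list summed to 532 and 612 CPM in NV and to 232 and 433 CPM in V (male first). The groups still did not overlap there. The part of B cell numbers in the lower level of Ighm was not tested.

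The B cell list was lower on the airway side, where Jchain was higher. Of its 16 genes, 9 were called lower and 1 (Ebf1) higher on the airway side, where 18.8% of all genes were called lower and 22.7% higher. Its median log2 difference was -0.70 against -0.03 over all genes. Cd79a differed by -0.85 ± 0.21 (log2, SE, edgeR adjusted p = 0.00826) and Cd79b by -0.79 ± 0.15 (edgeR adjusted p = 0.00242). Of 10 T cell genes, 8 were called lower on the airway side, again beside 18.8% of all genes. Between the groups the sum of the T cell list was near level, at 108, 107, 112 and 94.7 CPM. Of its genes, 3 were lower in both V sections and 7 overlapped, where 14.4% of all genes tested were lower in both.

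Markers of plasma cells were mixed between the groups. The 15 genes summed to 620, 667, 660 and 614 CPM, with 2 genes higher in both V sections, 6 lower in both and 7 overlapping. Over all genes tested, 12.6% were higher in both V sections and 14.4% lower. The lower genes were Mzb1, Pou2af1, Irf4, Derl3, Edem1 and Tnfrsf13b, and the higher genes Prdm1 and Ssr4. The median log2 fold change of the list was -0.03. The list includes genes of the secretory pathway that many lung cells express. Mzb1, a chaperone of antibody assembly, stood at 24.9, 18.4, 10.5 and 11 CPM, lower in both V sections. Pou2af1, a coactivator of antibody gene transcription, stood at 14.8, 18.8, 10.1 and 6.94 CPM. Irf4, needed for plasma cell formation, stood at 12.9, 29.9, 5.98 and 11.6 CPM. Prdm1, the regulator of plasma cell identity, stood at 4.47, 3.16, 4.97 and 6.12 CPM. Xbp1 (118 to 183 CPM), Sdc1 (114 to 162 CPM) and the receptor Tnfrsf17 (0.991 to 2.16 CPM) overlapped between the groups, and Derl3 stood at 2.77, 2.59, 1.85 and 2.01 CPM. By region, 3 plasma cell genes (Eaf2, Irf4 and Ssr4) were called higher and 2 (Prdm1 and Sdc1) lower on the airway side, out of 14 tested. The shares over all genes were 22.7% higher and 18.8% lower.

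In the richest 1% of spots by heavy chain UMIs the plasma cell list summed to 1216, 917, 1031 and 827 CPM, against 605, 659, 653 and 609 CPM in the other spots. Mzb1 there stood at 262, 50.6, 102 and 36.5 CPM, against 19.3, 17.5, 8.75 and 10.4 CPM in the other spots of the NV male, NV female, V male and V female. Derl3 stood at 32.2, 20.3, 17.7 and 8.52 CPM against 2.07, 2.07, 1.54 and 1.85 CPM. Tnfrsf17 stood at 9.21, 25.3, 26.6 and 6.09 CPM against 0.686 to 1.48 CPM, on 2 to 6 UMIs per section. Not every gene of the list was higher there. Sdc1, a surface proteoglycan of plasma cells and epithelium, was at 92.1, 25.3, 195 and 102 CPM against 153, 117, 161 and 121 CPM, lower in 3 of 4 sections. Prdm1 was lower in the NV male (0 against 4.58 CPM) and the V female (4.87 against 6.15 CPM). The B cell list was lower in those spots of the NV male and female (405 against 452 and 279 against 528 CPM) and higher in those of the V male and female (314 against 231 and 533 against 326 CPM). Median depth was also higher there, at 10489 to 41958 UMIs against 6232 to 11126 UMIs in the other spots.

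Genes of antibody transport and of B cell support mostly overlapped between the groups. Of 9 genes of the transport and receptor list, 7 were tested, 2 were lower in both V sections and 5 overlapped. Over all genes tested, 14.4% were lower in both. Pigr, which carries IgA across epithelium, stood at 2.45, 2.01 and 1.60 CPM in the NV male, NV female and V male and at 45.5 CPM in the V female alone. Club cell markers summed to 12683, 2244, 287 and 12764 CPM in the NV male, NV female, V male and V female. The part of airway epithelium in the level of Pigr was not tested. Fcgrt, the neonatal Fc receptor, stood at 142, 158, 115 and 160 CPM. Pigr and Fcgrt were called higher on the airway side, by 1.97 ± 0.31 and 0.56 ± 0.11 (log2, SE, edgeR adjusted p = 0.00063 and 0.00229). The direction did not hold in the NV male, where Pigr measured 1.38 CPM on the airway side and 2.77 CPM in parenchyma (3 and 20 UMIs) and Fcgrt 140 and 143 CPM. In the NV female these were 3.14 and 1.06 CPM for Pigr and 176 and 142 CPM for Fcgrt, and in the V female 75 and 20.7 CPM and 168 and 155 CPM.

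Of 16 genes of B cell support, 9 were tested, 2 were lower in both V sections and 7 overlapped, beside 14.4% lower over all genes. Cxcl13, the chemokine that draws B cells into follicles, reached 15.3 and 66.4 CPM in NV and 1.60 and 10.1 CPM in V (male first). In the NV female 1 spot held 82 of its 462 Cxcl13 UMIs. Tnfsf13b, the B cell survival factor BAFF, stood at 31, 32.2, 30.6 and 22.5 CPM, and Tnfsf13 (APRIL), which sustains plasma cells, at 36.5, 41.7, 46.5 and 36.2 CPM. Ccl28, a chemokine for IgA cells, was counted 3, 2, 3 and 35 times.

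The variable genes, which tell 1 antibody clone from another, were barely captured. Heavy chain variable genes gave 5 to 13 UMIs per section, and kappa variable genes 6 to 39. Ighv7-1, Ighv11-2, Ighv1-12 and Ighv3-8 led the heavy chain segments with 5, 2, 1 and 3 UMIs, and Igkv15-103, Igkv12-44, Igkv17-134 and Igkv8-34 the kappa segments with 13, 4, 2 and 5 UMIs. Of the lambda variable genes, Iglv1 led in the NV male, V male and V female with 12 of 18, 5 of 6 and 24 of 32 UMIs. Iglv2 led in the NV female with 31 of 39 UMIs, the section in which Iglc2 was high.

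Over the spots of a section, other genes followed Igha and Ighm only weakly. The highest mean Pearson correlations over the 4 sections, among 12042 genes and with spots scaled to 10000 UMIs, were 0.14 for Mzb1, 0.12 for Coro1a and 0.11 for Ddx5, Wfdc2 and Icam1 with Igha. With Ighm they were 0.21 for H2-K1, 0.19 for Cd74 and 0.18 for Cd79b, Rps4x and Rpsa. Spots of 1 section share a library and differ in depth, and at these counts such values are a description. Cd74, the invariant chain of antigen presentation, stood at 1835, 1403, 1222 and 1358 CPM. Among the members the mean correlation was 0.23 for Igha with Jchain and 0.23 for Ighm with Jchain, but 0.06 for Igha with Ighm. The equal means with Jchain hid a split between the groups. Ighm with Jchain reached 0.33 and 0.41 in the NV male and female, against 0.03 and 0.16 in the V male and female. Igha with Jchain reached 0.15 in both NV sections, against 0.30 and 0.32 in the V male and female. This split is over all spots of a section, and the V male had only 1 airway side spot. Levels of Ighm and Igha also differed between the groups. Values in parenchyma spots alone are not given, and the split was not tested.

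Other tissues differed between the sections as well. Red cell genes summed to 11747, 12302, 22538 and 13755 CPM and macrophage genes to 253, 372, 642 and 499 CPM in the NV male, NV female, V male and V female. Brown adipose genes summed to 540, 1334, 65.4 and 1969 CPM, smooth muscle genes to 346, 298, 112 and 370 CPM, and parenchyma genes to 32717, 21607, 43565 and 21974 CPM. Their part in the values above was not tested.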

How the data were processed

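Visium sections of 4 mouse lungs were used. The authors aligned reads with Space Ranger to mm10 and deposited the unnormalized UMI counts of every gene in every spot, and all deposited spots were used. The submitters' processing notes also name Seurat 4.0.3, whose output was not used here. Members and gene lists were chosen with earlier results of these data known. Genes named were the members, the other IgG and IgE genes, fixed B cell, plasma cell and transport genes, the leading variable genes, and the 5 genes most correlated with Igha and with Ighm.

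Counts were summed per section, or per section and region, since spots are not replicates. The quasi-likelihood test of edgeR 4.0.16 (R 4.3.3) was applied after TMM scaling and filterByExpr. A call required a Benjamini-Hochberg adjusted p below 0.05 with an absolute log2 fold change above 0.25. SE is the fold change divided by the root of F. DESeq2 1.42.0 was an alternative. The study's own test over spots was not used. CPM were scaled to total UMIs. A spot was parenchyma at 50% or more of the series' summed level of the alveolar genes Sftpc, Sftpb, Hopx and Cldn18 with the endothelial genes Calcrl and Tmem100. Cardiac spots had at least 20000 CPM of cardiac markers. Thinning drew 3000 UMIs per spot. Fits were tested on simulated data. Intervals are exact 95% binomial intervals, and intervals and floors (3 counts) cover counting error only. Alternatives comprised other scalings, filters, regions, spots and left-out mice. Replicate numbers match sex, not litter or batch. Between V and NV, p-values measure the spread between mice, 1 section each. By region, with the section as a block, they measure how the difference between regions varied over 3 sections. Positions of spots were not analysed here. Some of the fixed genes are not reported here.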

Additional observations from a re-analysis of the deposited data

Results flagged for a closer look

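Differences that ran in opposite directions between groups were singled out, and none of them was tested. The ratio of kappa to lambda UMIs was 3.19 higher in the V female than in the NV female, and 3.31 lower in the V male than in the NV male. Ighg2b was 2.72-fold as high in the V female as in the NV female but 0.442-fold in males, on 7 to 94 UMIs. Ighg2c was 1.09-fold as high in V as in NV in females, and was at 0 UMIs in the V male against 43 UMIs in the NV male.

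By region, 3 genes went the opposite way in the V female from both NV sections. The log2 ratio of the airway side to parenchyma was -0.24 for Ighm in the V female, against 1.72 and 1.52 in the NV male and female. For Igkc it was -0.18, against 2.10 and 0.30. For Igha it was 0.53, against -2.39 and -0.51. The V female was the only V section with enough airway side spots.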

How the results depend on the processing

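Precision is limited by 2 mice per group, 1 section each, and by tissue that differed between sections. Of the members' log2 fold changes between V and NV, 116 of 130 alternatives kept direction and side of the threshold. By region it was 74 of 98. A value that rounded to 0.00 was counted as kept. This held for Iglc1 between V and NV, at -0.36 in the main fit. It was 0.00 without the richest 1% of spots by Igkc and without the V male. The cause of the changes was not tested. With the replicate number as a block, edgeR called 0 genes between V and NV. The numbers match sex alone, and over 14570 genes the deviations of same-numbered mice from their group means correlated at r = 0.32. The block changed no member's call. DESeq2's Wald test called 8 genes. Leaving out 1 mouse gave 0 to 811 calls, with 21 without the V male and 811 without the V female (Ighm, Igha, Jchain, Iglc3 and Ighg2c among them, with the lone V male assumed to vary like the NV mice), and 4244 to 5898 calls by region.

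Ighg2b turned to -0.07 without the richest 1% of spots by Igkc, -0.20 in parenchyma spots, -0.02 without the richest 1% by heavy chain UMIs (an alternative chosen after seeing the data), and ranged from -0.80 to 0.97 with 1 mouse left out (-0.40 without the NV female, -0.80 without the V female). Ighg2c turned to 0.17 without the V male and was -8.48 without the V female, a value that depends on the prior count since the V male held 0 UMIs. By region, Igha turned to 0.18 at a threshold of 75%, 0.43 with no section block and ranged from -0.89 to 0.53 with 1 section left out (0.53 without the NV male). Iglc1 turned to -0.15 without the richest 1% of spots by Igkc and ranged from -0.04 (without the NV male) to 1.10. Iglc2 ranged from -0.40 to 1.44 and Iglc3 from -0.24 to 1.2, both negative without the NV female. The IgM share difference moved to -40.4 points in parenchyma spots and -41.1 points without the richest 1% by heavy chain UMIs. In parenchyma spots alone (chosen after seeing the data) the V minus NV difference in the share of UMIs in the richest 1% of spots moved from -28.5 to 3.97 points for Ighm and from -0.650 to -6.65 for Igha. The ratio of kappa to lambda differed by -0.0569 between V and NV, and by -4.05 to 3.93 with 1 mouse left out. The V minus NV difference in spots with Ighm moved from -42.2 to -27.7 points on thinning to 1000 UMIs. For Igha it moved from 26.4 to 12.1 points at 1000 UMIs, to 36.6 at 5000 UMIs and to 8.20 with at least 2 UMIs per spot. No filter on low counts raised the region calls to 6769, and a threshold of 25% gave 4255.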
